A study of Mus musculus with 4 samples.

Results

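The 10 neutrophil granule and granulocyte precursor genes Mpo, Elane, Prtn3, Ctsg, Camp, Ngp, Ltf, S100a8, S100a9 and Ms4a3 were followed in kidneys of mouse embryos at embryonic day 15. Every probe set whose platform annotation gives exactly 1 symbol, and whose symbol is one of these, was taken. This gave 10 probe sets, 1 per gene, among 45037 probe sets that carry 18193 gene symbols of their own. The genes were put together with the diet differences on these same arrays already known. Of 12997 genes bright enough to be tested, Mpo, Camp, Ngp and Ctsg ranked 2, 3, 8 and 10 by log2 difference, highest first. Their differences between diets are therefore given as a description and carry no test.

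The iron-deficient pools came from embryos of C57BL/6 dams that ate a synthetic diet with about 2 to 6 ppm iron, and the control pools from embryos of C57BL/6 dams on a diet with 220 ppm iron. Dams were 8 weeks old when divided between the diets, with at least 20 per diet, ate their diet for 3 weeks before gestation and throughout pregnancy, and were mated with C57BL/6 males. There were 2 pools per diet, each made of 16 kidneys and read on 1 Affymetrix array, so differences between single embryos cannot be seen. Nothing in the labels ties a pool to its own litters, and p-values therefore cover the spread between pools alone, which could be technical. An exact permutation test of 2 pools against 2 cannot give a two-sided p below 0.333.

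Neutrophils are made from granulocyte progenitors, which at this stage of gestation are found mainly in the fetal liver and circulate in the blood that perfuses the kidney. Their granules are filled in sequence. Azurophil (primary) granules form first, at the promyelocyte stage, and hold myeloperoxidase and the serine proteases, whereas specific (secondary) granules form later and hold cathelicidin, lactoferrin and related proteins. The cytosolic proteins S100A8 and S100A9 accumulate as the cell matures, and together form calprotectin. RNA for azurophil granule proteins is largely lost as the cell matures, so it marks precursors rather than mature neutrophils.

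In every one of the 10 genes, each iron-deficient pool exceeded each control pool. The signal is the deposited intensity, in arbitrary units on a linear scale. It is compared between arrays for a given gene, within the limits of the array differences given below, and is not comparable between genes. The log2 differences, iron-deficient minus control, ran from 1.27 for Ms4a3 to 4.13 for Mpo with a median of 2.10, where the median over all 27022 tested probe sets was -0.10. Of those tested probe sets, 11.8% also had both iron-deficient pools above both control pools, and 1.72% did so with a difference of at least 2-fold, as all 10 genes did. Nothing is read from these shares, since the genes were chosen on this contrast. Transcripts from more cells and more RNA per cell cannot be told apart in pooled kidney RNA.

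**Figure D1:**
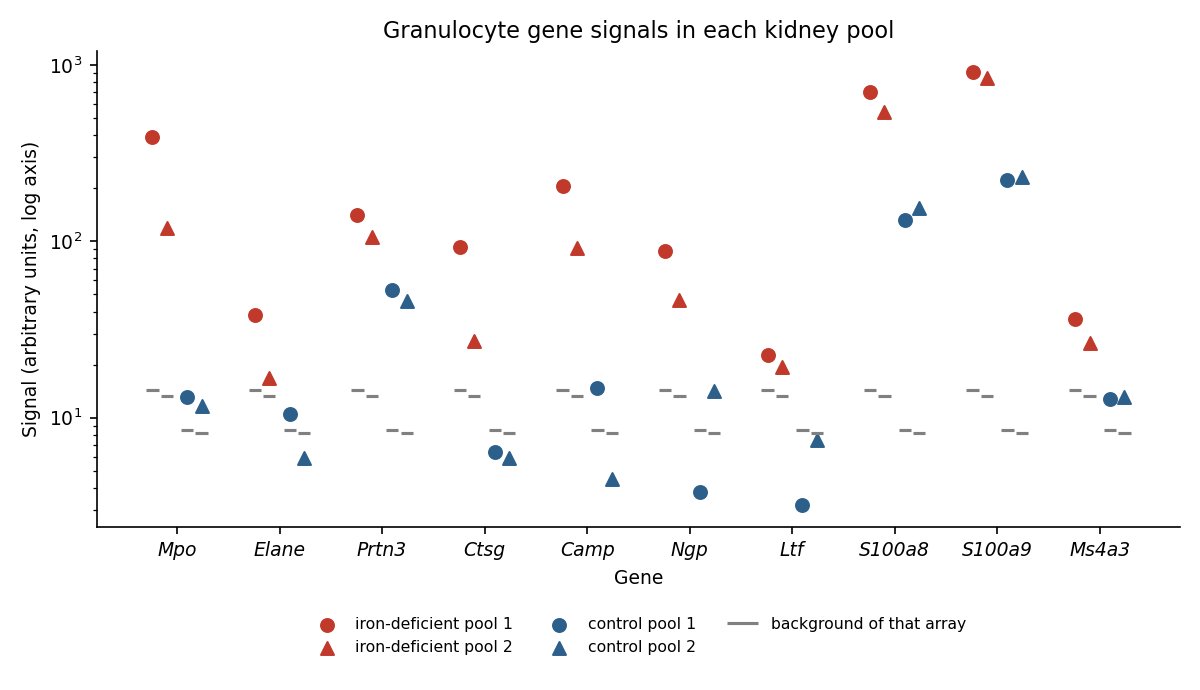
Signal of each gene (log axis, arbitrary units) in every pool, 1 point per array, with the iron-deficient pools in red and the control pools in blue, and a grey dash at the background of that array. In all 10 genes both red points lie above both blue points, and the Ctsg and Ltf points of both control pools lie below the dash.

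The arrays differed in ways that touch these values. The brightest of 27 bacterial control probe sets served as the background of an array, and was 14.4 and 13.3 in the iron-deficient pools and 8.5 and 8.2 in the control pools. The first iron-deficient pool was the least like the rest: across tested probe sets its log2 signals correlated with those of the other arrays at 0.883 to 0.913, while the other arrays correlated with each other at 0.970 to 0.978. These values run across probe sets, which are not independent of each other. RNAs spiked into every hybridisation read 1.82 and 1.25 times the control mean in iron-deficient pools 1 and 2, and an 18S ribosomal RNA probe set toward the 5′ end read 2144.5 and 243 in these same pools, against 291.9 and 289.4 in the control pools. Although the labels give the sex as female, which may describe the dams, the Y-linked gene Eif2s3y read 253.6 and 20.8 in the iron-deficient pools and 594.5 and 600 in the control pools. The part of these differences in the results was not tested, and the difference of each gene in iron-deficient pool 2 alone is given further on.

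Azurophil granule genes showed both the largest and nearly the smallest of the differences. Mpo encodes myeloperoxidase, the haem enzyme that makes hypochlorous acid and the classic marker of promyelocytes. Its probe set, 1415960_at, read 388.4 and 119.7 in the iron-deficient pools and 13.1 and 11.6 in the control pools. The lower iron-deficient signal was 9.14 times the higher control signal, and all 4 signals were above background. The log2 difference was 4.13 ± 0.60 (SE of the limma fit, n = 2 pools per diet), or 17.5-fold, and against the control mean it was 4.98 for the first iron-deficient pool alone and 3.28 for the second alone.

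Ctsg encodes cathepsin G, a serine protease of the same granule. Its probe set, 1419594_at, read 92.7 and 27.2 in the iron-deficient pools and 6.4 and 5.9 in the control pools, and neither control signal was above background. By the mean of its log2 signals, the iron-deficient level was 6.01 times the background of the control arrays. This is no lower bound, since background was higher on the iron-deficient arrays. The log2 difference of the signals themselves was 3.03 ± 0.62 (SE).

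Prtn3 encodes proteinase 3, and Elane encodes neutrophil elastase, mutated in human congenital neutropenia. The genes lie next to each other on chromosome 10 with 0 annotated genes between them. Prtn3 (1419669_at) read 140.3 and 105.6 in the iron-deficient pools and 53.2 and 45.8 in the control pools (log2 difference 1.30 ± 0.34, SE). It was the only azurophil gene here with control signals well clear of background, at 2.47-fold the smallest change among them. Elane (1422928_at) read 38.2 and 16.7 in the iron-deficient pools and 10.5 and 5.9 in the control pools. Its log2 difference was 1.68, or 1.44 with the dimmer control signal, which was not above background, set to the background. The groups of Elane came closest to each other, with the lower iron-deficient signal 1.59 times the higher control signal.

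The windows upstream of these 4 genes are shown because the genes share a regulatory setting in textbook accounts of promyelocytes, in which PU.1, C/EBP and RUNX factors act on them. Each stretch holds the 250 bases before the annotated gene start, 5′ to 3′ on the gene's strand, from RefSeq on GRCm38.p6. Capitals mark matches on either strand to the letters searched for PU.1 (GAGGAA) and RUNX (TGTGGT), and no match to those for C/EBP (TTGCNNAA) lies in these 4. The windows are Mpo at chr11:87793534-87793783 (plus strand), Prtn3 at chr10:79879417-79879666 (plus), Elane at chr10:79886062-79886311 (plus) and Ctsg at chr14:56102575-56102824 (minus).
Mpo: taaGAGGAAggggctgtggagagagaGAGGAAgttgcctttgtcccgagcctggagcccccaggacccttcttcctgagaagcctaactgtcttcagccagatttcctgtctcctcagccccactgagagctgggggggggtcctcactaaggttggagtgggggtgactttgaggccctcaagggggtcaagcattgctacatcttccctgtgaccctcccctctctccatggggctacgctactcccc
Prtn3: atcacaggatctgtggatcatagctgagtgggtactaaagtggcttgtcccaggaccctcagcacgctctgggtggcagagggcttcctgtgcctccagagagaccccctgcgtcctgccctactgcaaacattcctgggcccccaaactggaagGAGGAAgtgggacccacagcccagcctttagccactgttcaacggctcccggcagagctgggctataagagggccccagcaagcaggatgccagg
Elane: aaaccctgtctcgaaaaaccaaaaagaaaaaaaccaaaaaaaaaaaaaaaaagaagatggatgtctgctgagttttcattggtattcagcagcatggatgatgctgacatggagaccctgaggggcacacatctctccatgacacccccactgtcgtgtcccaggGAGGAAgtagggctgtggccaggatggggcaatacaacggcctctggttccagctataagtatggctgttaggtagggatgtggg
Ctsg: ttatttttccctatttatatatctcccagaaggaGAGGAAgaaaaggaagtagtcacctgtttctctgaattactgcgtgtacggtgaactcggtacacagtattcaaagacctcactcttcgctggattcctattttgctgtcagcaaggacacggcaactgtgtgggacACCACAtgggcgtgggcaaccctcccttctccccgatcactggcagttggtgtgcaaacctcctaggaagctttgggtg

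Over windows of 300 bases, which add the first 50 bases of the transcript, the PU.1 letters were found in 7 of the 10 genes (Mpo, Elane, Prtn3, Ctsg, Ltf, S100a8 and Ms4a3), against 28.3% of 32851 RefSeq windows of that length. The C/EBP letters were found in 4 (Ngp, Ltf, S100a9 and Ms4a3), against 10.8% of windows, and the RUNX letters in 3 (Ctsg, Ltf and S100a9), against 16.8%. Letters for the core of the hypoxia-inducible factor site (ACGTG) were found in 1, Ngp, against 19.6%. No match to one of these 4 motifs overlapped a match to another in the windows of the 10 genes. A longer run that contains the PU.1 letters, GAGGAAGT, picked after these windows had been read, was found in Mpo, Prtn3, Elane and S100a8, against 3.20% of windows. A match of letters is not a binding site, and no match says only that the letters are not in the window.

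Specific granule genes were near or below background in the control pools. Camp encodes the mouse cathelicidin, an antimicrobial peptide precursor. Its probe set, 1419691_at, read 205.4 and 91.5 in the iron-deficient pools and 14.8 and 4.5 in the control pools, of which the 4.5 was not above background. The log2 difference was 4.07 ± 0.70 (SE), or 3.64 with that signal set to the background, and Camp stood beside Mpo as the pair with the largest differences among the 10. Without control pool 1 it was 4.93, and without control pool 2 it was 3.21, so the value depends on which dim control signal is used.

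Ngp encodes neutrophilic granule protein, a mouse relative of the cathelicidins. Its probe set, 1418722_at, read 88.3 and 46.5 in the iron-deficient pools and 3.8 and 14.2 in the control pools. The lower control signal was again not above background. Its log2 difference was 3.12 ± 0.71 (SE), and 2.54 with the dimmer signal set to the background. It was 2.17 without control pool 1 and 4.08 without control pool 2. Camp and Ngp differed in opposite directions between the control pools, with Camp brighter in control pool 1 and Ngp brighter in control pool 2.

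Ltf encodes lactoferrin, the iron-binding protein of specific granules that keeps iron from microbes. Its probe set, 1450009_at, read 22.7 and 19.5 in the iron-deficient pools and 3.2 and 7.5 in the control pools, with both control signals not above background. Its iron-deficient level was 2.52 times the background of the control arrays. This is no lower bound, since the iron-deficient arrays had backgrounds of 14.4 and 13.3, not far under the Ltf signals there. Ltf and Elane were the genes that fell under the limit for testing, a geometric mean signal of 17.3 over the 4 arrays. Ctsg, at 17.6, lay just inside that limit and Elane, at 14.1, just outside. Of the 8 that were tested, 5 passed it only through their iron-deficient signals, and the control signals alone would have passed for Prtn3, S100a8 and S100a9.

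The calprotectin genes were above background on every array, and their pools differed by at most 1.29 times within a diet. S100a9 encodes the larger calprotectin subunit, and its probe set, 1448756_at, read 908.5 and 845.8 in the iron-deficient pools and 223 and 230.4 in the control pools (log2 difference 1.95 ± 0.31, SE). S100a8, its partner subunit and its direct neighbour on chromosome 3 (1419394_s_at), read 700.3 and 544.3 in the iron-deficient pools and 132.9 and 154.9 in the control pools (2.11 ± 0.33, SE). The groups did not overlap, with the lower iron-deficient signal 3.67 times the higher control signal for S100a9 and 3.51 times for S100a8. These folds, 3.87 and 4.30, rest on signals well above background in all 4 arrays, and the S100a8 probe set is of a type that can detect several related transcripts.

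Ms4a3 encodes a membrane protein used to trace granulocyte and monocyte progenitors in mice. Its probe set, 1420572_at, read 36.4 and 26.6 in the iron-deficient pools and 12.7 and 13.1 in the control pools, with a log2 difference of 1.27 ± 0.34 (SE). Its 4 signals were above background, and the lower iron-deficient signal was 2.03 times the higher control signal. This was the smallest difference among the 10.

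Ranks within an array do not depend on a scaling factor for that array. Mpo lay at the 81.2 and 64.5 percentile of its array in the iron-deficient pools and at the 32.8 and 36.4 percentile in the control pools. Camp lay at 72.9 and 61.3 in the iron-deficient pools and at 34.7 and 19.9 in the control pools, and Ctsg at 62.1 and 47.1 in the iron-deficient pools and at 20.7 and 24.2 in the control pools. S100a9 was in the upper part of every array, at 90.2 and 89.0 in the iron-deficient pools and 70.7 and 72.3 in the control pools. For each of the 10 genes both iron-deficient percentiles lay above both control percentiles.

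**Figure D2:**
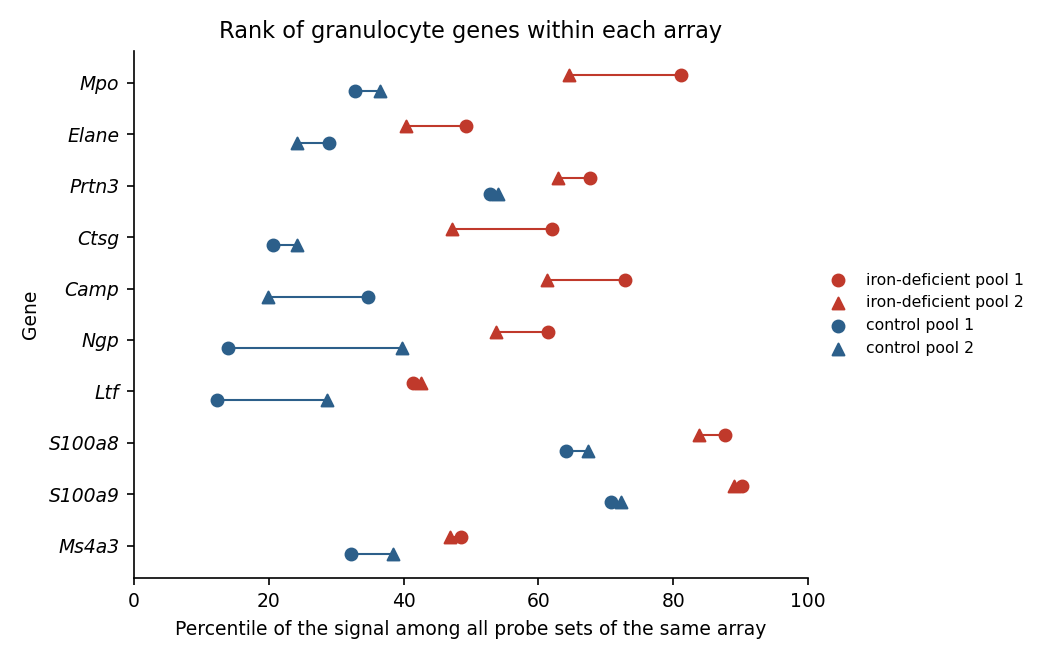
Percentile of each gene's signal among the 45037 probe sets of the same array, with iron-deficient pools in red above control pools in blue and a line joining the pools of a diet. The 2 colours overlap for none of the 10 genes, and the red line is longest for Mpo, whose iron-deficient pools lie at 81.2 and 64.5.

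The iron-deficient pools did not carry the genes in the same proportion. As deposited, all 10 signals were higher in iron-deficient pool 1 than in iron-deficient pool 2, as were 43.6% of all tested probe sets. The median over tested probe sets, pool 1 minus pool 2, was -0.15 on the log2 scale. The azurophil genes Ctsg, Mpo and Elane were 3.41, 3.24 and 2.29 times as bright in pool 1, and Camp and Ngp were 2.24 and 1.90 times as bright. Ms4a3, Prtn3, S100a8, Ltf and S100a9 differed less, by 1.37, 1.33, 1.29, 1.16 and 1.07 times. The order of the pools depends on scaling for these 5. With arrays scaled to the hybridisation spikes, a setting added after the data were seen, iron-deficient pool 1 was the brighter for 5 of the 10 genes, namely Mpo, Elane, Ctsg, Camp and Ngp. After quantile normalization it was the brighter for 9, all but Ltf, and after median centring for 8, all but Ltf and S100a9.

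Both iron-deficient pools stayed above both control pools for all 10 genes under each of these scalings. Scaling to the spikes lowered the median tested probe set to -0.70, and the median of the 10 genes to 1.51. One factor per array shifts all probe sets alike, so the distance between these medians, 2.21, is the same by construction under spike scaling. The array of iron-deficient pool 2 correlated with both control arrays at 0.970, but it was not like them in every way. Its background was 13.3, against 8.5 and 8.2 in the control pools, and its Eif2s3y signal was 20.8, against 594.5 and 600. Its summed signal of liver genes was 3380.2, against 1791.8 and 1604.5. In that pool alone, the differences from the control mean ran from 1.04 for Ms4a3 to 3.49 for Camp, with a median of 1.96. The others were 3.28 for Mpo, 2.66 for Ngp, 2.15 for Ctsg, 1.99 for Ltf, 1.92 for S100a8, 1.90 for S100a9, 1.10 for Prtn3 and 1.09 for Elane, all of them above the median of -0.03 over tested probe sets in that pool.

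**Figure D3:**
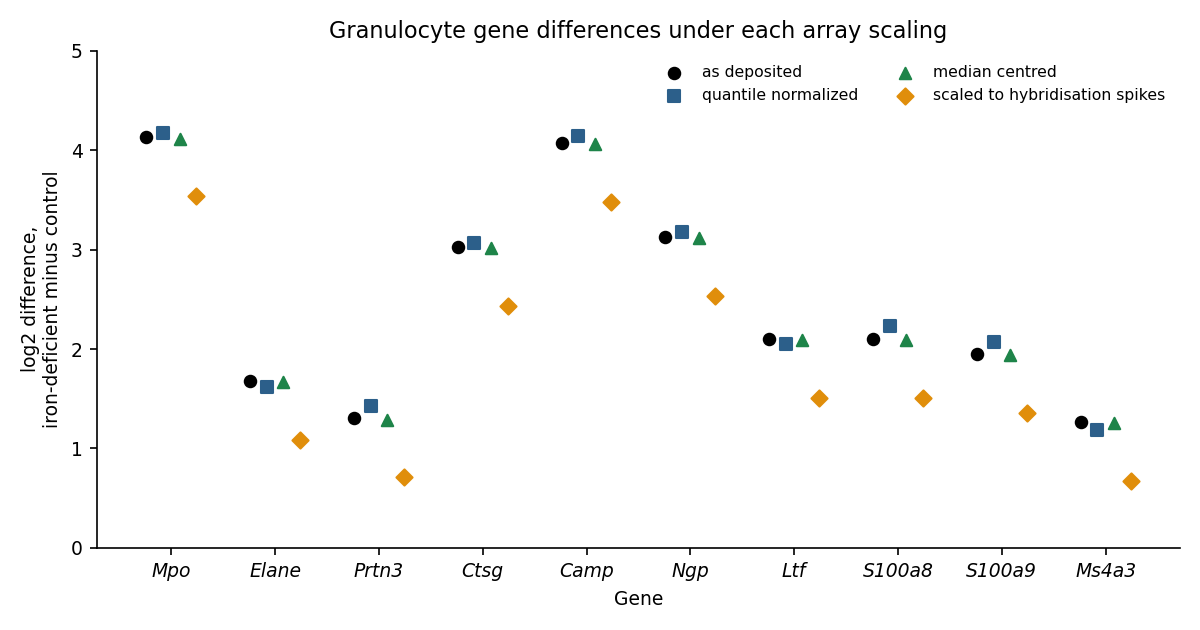
Log2 difference of each gene, iron-deficient minus control, with the arrays as deposited, quantile normalized, median centred or scaled to the hybridisation spikes. All 40 points lie above 0, and spike scaling gives the lowest value for each gene, down to 0.68 for Ms4a3.

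Other genes of the granulocyte programme had medians near or below that of all tested probe sets, apart from the chemokines, with none past the threshold. None of the 129 tested genes on the lists for other granule proteins, granulopoiesis and other cell types passed an adjusted p of 0.05 by limma (smallest adjusted p = 0.452), and none of all 27022 probe sets did (0% called, smallest adjusted p = 0.289, and 1069 at an unadjusted p under 0.05). With 1 probe set per gene 0.1% were called, which was 13 of 12997 and none of the list genes. At an unadjusted p under 0.05 lay 9 list genes that were higher and 8 that were lower, where 1.14% and 2.81% of all tested probe sets did so. Of the 9 higher genes 7 were erythroid, and the others were S100b and Vwf. Lyz2 and Csf2rb were among the 8 lower. In the list of other primary granule proteins and their processing, 5 of 9 genes were measured and all 5 tested, with a median log2 difference of -0.25. Lyz2, the lysozyme of granulocytes and macrophages, read 398.9 and 260.2 in the iron-deficient pools and 638.7 and 817.6 in the control pools (-1.17 ± 0.38, SE; limma adjusted p = 0.852). Srgn, the proteoglycan that packs granule proteases, differed by 0.23 ± 0.31.

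Of 16 measured genes for other specific and gelatinase granule proteins, 10 were tested, 1 lay above both control pools in both iron-deficient pools and 4 lay below, with a median of -0.31. The shares of all tested probe sets that did so were 11.8% and 25%. Pglyrp1, a peptidoglycan-binding granule protein, read 56.4 and 39.4 in the iron-deficient pools and 30.4 and 36.7 in the control pools (0.50 ± 0.36, SE). Lcn2, the siderophore-binding protein of specific granules that kidney epithelium also makes, read 56.3 and 95.6 in the iron-deficient pools and 112.2 and 102.8 in the control pools (-0.55 ± 0.39), and Mmp9, the gelatinase, differed by 0.30 ± 0.57 with overlapping pools. Fcnb, which encodes ficolin B and was picked out after its values were seen, was below background in both control pools. It read 37.1 and 13.5 in the iron-deficient pools and 6.1 and 5.8 in the control pools. The 13.5 was barely above the background of that array, 13.3. The iron-deficient level was 2.68 times the background of the control arrays, which is no lower bound, since background was higher on the iron-deficient arrays. Fcnb was too dim to be tested.

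Of 10 measured genes on the list of granulopoiesis transcription factors, not all of which drive it, 8 were tested. Of these, 1 lay above and 2 below both control pools in both iron-deficient pools, close to the 11.8% and 25% of all tested probe sets. Their median was 0.03 (-0.56 with spike scaling). Cebpb, which sustains emergency granulopoiesis, read 74 and 39.1 in the iron-deficient pools and 25.2 and 28.9 in the control pools (1.00 ± 0.42, SE; limma adjusted p = 0.852). Cebpa, required to enter the lineage and also expressed outside it, differed by -0.96 ± 0.52. Myb and Runx1 were high in iron-deficient pool 1 alone, at 1777.6 and 193.1, and read 378.5 and 24.7 in iron-deficient pool 2, below both control pools. Gfi1 and Spi1, which encodes PU.1, were too dim to be tested, and Cebpe was not analysed here.

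Several granulocyte receptors were dim. Csf3r, the receptor for granulocyte colony-stimulating factor, read 13.2 and 8.3 in the iron-deficient pools, neither above background, and 10.5 and 11.4 in the control pools. In the growth factor and receptor list 11 of 12 genes were measured and 6 tested, with a median of 0.13 (-0.46 with spike scaling), and Csf2rb, the shared receptor chain for GM-CSF, IL-3 and IL-5, differed by -0.80 ± 0.31 (SE; limma adjusted p = 0.852). In the list for the surface and chemotaxis of mature neutrophils, 13 of 17 genes were measured and only 4 were bright enough to be tested, with a median of -0.28. Cxcr2, the receptor that draws mature neutrophils into tissue, was named after its values were seen and was not above background in any pool. Cxcr4, which retains immature neutrophils in marrow and is widely expressed in embryos, read 3273.4 and 1058.3 in the iron-deficient pools and 841.8 and 932.7 in the control pools (1.07 ± 0.58, SE). Among 8 measured neutrophil-attracting chemokines, the 2 tested were Ppbp (1.18 ± 0.53) and Cxcl12 (0.39 ± 0.32).

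**Figure D4:**
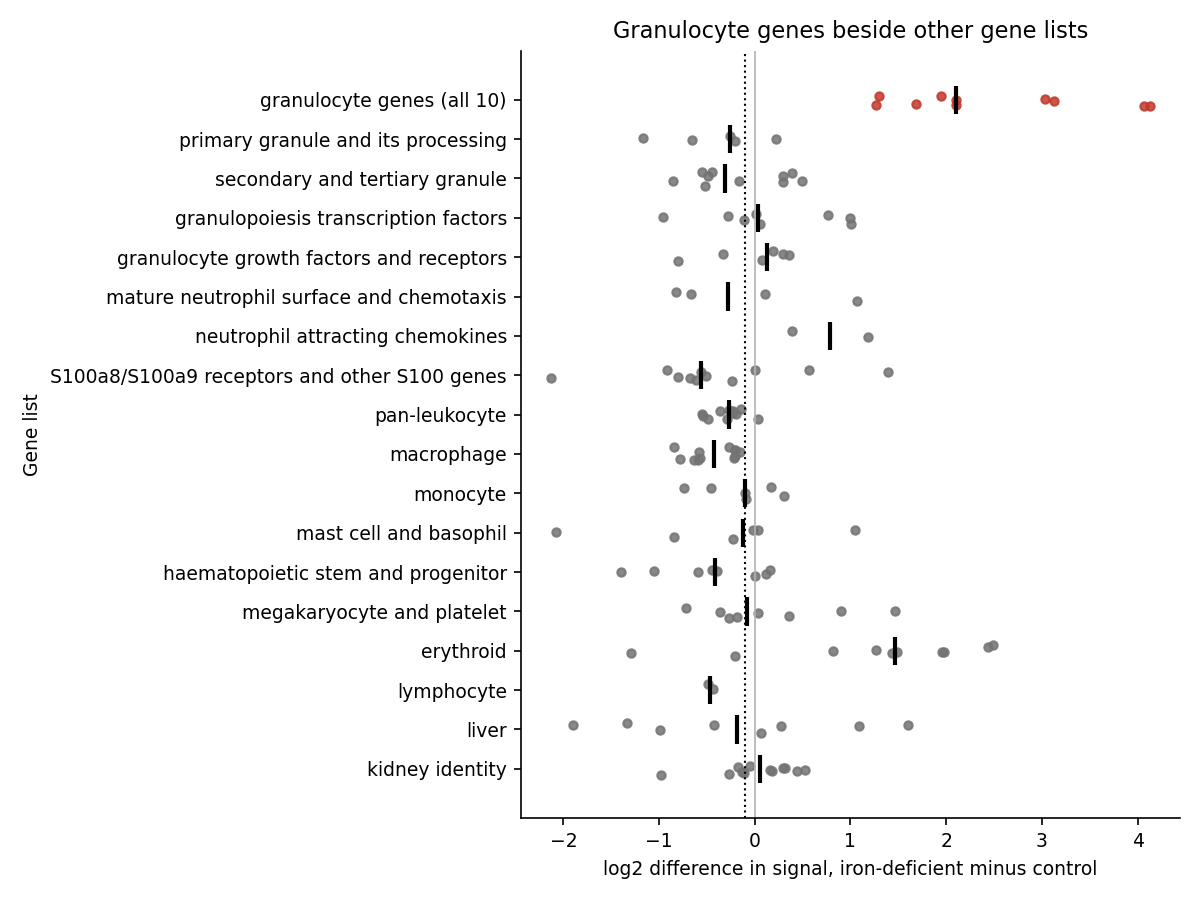
Log2 differences, iron-deficient minus control, of the 10 granulocyte genes (red, at the top) and of the tested genes on each other list (grey, brightest probe set of each gene), with a black bar at the median of a list and a dotted line at -0.10, the median of all tested probe sets. The 10 genes have a median of 2.10, and the erythroid list, at 1.46, has the highest median among the others.

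The calcium-binding relatives of S100a8 and S100a9 and the calprotectin receptor genes lay on both sides of the controls, more often below. Of the S100 relatives tested, S100b alone lay above both control pools in both iron-deficient pools. Of 13 measured genes for other S100 proteins and for the calprotectin receptors, 11 were tested, 2 lay above and 6 below both control pools in both iron-deficient pools (11.8% and 25% of all tested probe sets), and the median was -0.56. S100g, the vitamin D-dependent calbindin of epithelia, read 317.4 and 871.4 in the iron-deficient pools and 2106.2 and 2496.8 in the control pools (-2.12 ± 0.54, SE; limma adjusted p = 0.852). S100b, known from glial cells, read 25.8 and 40.2 in the iron-deficient pools and 15 and 10.1 in the control pools (1.39 ± 0.40, SE; limma adjusted p = 0.852). Ager, a receptor for S100 proteins and named after its values were seen, differed by 0.57 ± 0.33. S100a4, found in fibroblasts and leukocytes, differed by -0.92 ± 0.34, and Tlr4, a receptor for calprotectin, by -0.67 ± 0.33.

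General leukocyte and macrophage genes lay below the controls or overlapped them. Summed over all 12 measured pan-leukocyte genes, the signal was 3553 and 3364 in the iron-deficient pools and 3949 and 4448 in the control pools, and 0 of 11 tested genes lay above both control pools in both iron-deficient pools while 7 lay below, where 11.8% and 25% of all tested probe sets did. Ptprc, which encodes the leukocyte antigen CD45, read 78.3 and 128.8 in the iron-deficient pools and 161.7 and 133.2 in the control pools (-0.55 ± 0.39, SE). The sum over 15 macrophage genes was 1854 and 2531 in the iron-deficient pools and 2564 and 2835 in the control pools, with 0 of 12 tested genes above and 5 below, against the same shares. Csf1r, the macrophage growth factor receptor, differed by -0.27 ± 0.34, and the monocyte list of 6 genes had a median of -0.10, that of all tested probe sets. Mast cell and basophil genes were mixed, with Cpa3 at 1.05 ± 0.56 and Hdc, which makes histamine, at -2.08 ± 0.61. Median differences were -0.42 over 8 tested stem and progenitor genes, -0.08 over 8 megakaryocyte genes and -0.47 over 2 lymphocyte genes. Among 5 measured eosinophil genes none was bright enough to be tested, and Epx, the eosinophil peroxidase related to Mpo, read 14.3 and 15.7 in the iron-deficient pools and 14 and 11.7 in the control pools.

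Erythroid and liver genes differed in how they ran across the pools. Of 10 tested erythroid genes 7 lay above and 1 below both control pools in both iron-deficient pools (11.8% and 25% of all tested probe sets), with a median of 1.46 (0.87 with spike scaling). None passed the adjusted threshold, while with median centring Hbb-bh1 and Hemgn did (limma adjusted p = 0.0053 and 0.0036). Their summed signal was 9752 and 6874 in the iron-deficient pools and 3053 and 3389 in the control pools, over 13 measured genes. Liver genes split the iron-deficient pools. Their sum over 14 measured genes was 366.5 and 3380 in the iron-deficient pools and 1792 and 1604 in the control pools, and Alb, which encodes albumin, read 17.3 and 372.6 in the iron-deficient pools and 45.3 and 31.4 in the control pools. As deposited, all 10 granulocyte genes were brightest in iron-deficient pool 1, while with spike scaling this held for 5. Of 8 tested liver genes, 7 read lower in iron-deficient pool 1 than in either control pool. All 8 lay above both in iron-deficient pool 2. The matching single-pool shares of all tested probe sets are not given, so these counts have no comparison. Against the control mean, the median in pool 1 was -1.12 for tested liver genes and -0.18 for all tested probe sets. For pool 2 these medians were 0.99 and -0.03. The part of blood or liver RNA in the granulocyte signals was not tested. Kidney genes such as Wt1, Foxd1, Six2 and Nphs1 were above background in all pools. Wt1, Foxd1 and Six2 lay above both control pools in both iron-deficient pools, and Nphs1 lay below (-0.98 ± 0.43, SE). Of the kidney list of 12 tested genes 4 lay above and 2 below (11.8% and 25% of all tested probe sets). The median was 0.06, or -0.54 with spike scaling.

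**Figure D5:**
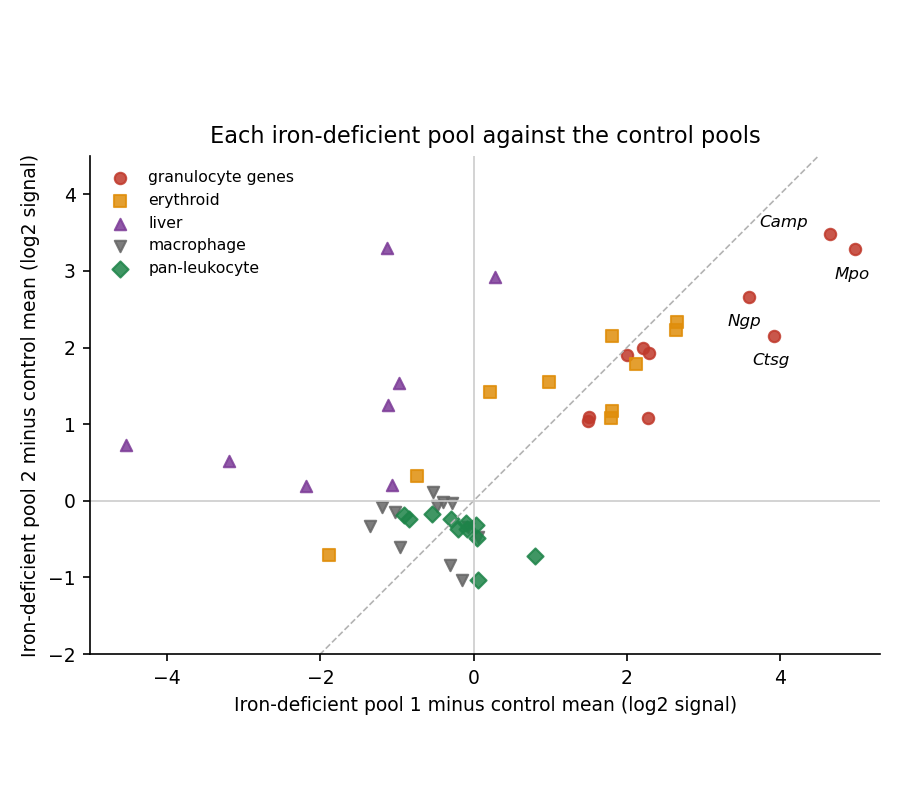
Log2 signal of iron-deficient pool 1 (horizontal) and of iron-deficient pool 2 (vertical), each minus the mean of the control pools, for the 10 granulocyte genes and the tested genes of 4 other lists, with equality dashed. Granulocyte genes lie at the upper right and below the dashed line, liver genes lie above the dashed line, and both axes share the control pools.

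The genes closest in pattern were found by the distance between log2 profiles over the 4 arrays, each centred on its own mean, to the mean profile of the 8 tested granulocyte genes. Among 12989 other genes the nearest 8 were Adm, Hbb-bh1, Hemgn, Slc2a3, Stfa3, Fst, Flt1 and Stmn3, at distances of 0.365 to 0.826 log2 units, whereas the granulocyte genes themselves lay 0.645 to 1.90 from their mean. Likeness over 4 arrays is a description only. The mean profile comes from genes chosen on this contrast, 5 of which passed the limit for testing only through their iron-deficient signals. Genes near it are therefore ones that were also higher in the iron-deficient pools. Adm, the nearest, read 3433.5 and 1887.8 in the iron-deficient pools and 411 and 552.2 in the control pools. Its log2 difference was 2.42 ± 0.42 (SE, limma adjusted p = 0.667). Hbb-bh1, an embryonic globin, read 252.9 and 190.9 in the iron-deficient pools and 37.6 and 43.8 in the control pools (2.44 ± 0.34, SE; limma adjusted p = 0.465). Stfa3, one of a cluster of mouse stefins whose near-identical copies make the probe set uncertain, read 293.9 and 137.1 in the iron-deficient pools and 41.6 and 58.1 in the control pools (2.03 ± 0.48; limma adjusted p = 0.852).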

How the data were processed

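RNA of 4 pools of embryonic kidneys was biotin labelled and hybridised to Affymetrix mouse whole-genome arrays. The authors deposited 1 linear intensity for each probe set, and the arrays share a trimmed mean, a scaling read here from the values. The submitters' processing notes name RMA, but the values are neither logarithmic nor brought to one distribution, and the summarising software is therefore unknown here.

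Zeros were set to 0.1 before log2. The 64 control probe sets and the dimmest 40% of the rest were left out, and 27022 went into limma 3.58.1 under R 4.3.3 (lmFit, eBayes, two-sided, diet as the only term, Benjamini-Hochberg over all of them), with 2 residual and 3.49 prior degrees of freedom. The fit was tested on simulated data. Each error is the fit's standard error of the log2 difference (iron-deficient minus control). Folds over background use that of the control arrays, which was lower than that of the iron-deficient arrays. With all signals set to background, a gene not above it in any pool, such as Cxcr2, still has a log2 difference of 0.73. The number of arrays limits the precision. The 10 genes and all lists were chosen with earlier results of these data known. The genes named come from the 4 of smallest p on each list and from 13 fixed genes, with exceptions said in the text. Sequences are RefSeq's.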

Additional observations from a re-analysis of the deposited data

How the results depend on the processing

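All 10 genes had both iron-deficient pools above both control pools after quantile normalization, median centring and spike scaling. The filters, the offset of 16 and leaving out a pool cannot undo that order and say nothing about it. Over 110 recomputed gene values, of which those under the filters equal the reported ones by construction, none changed sign, 14 moved by more than the spread between pools, and they ran from 0.68 to 4.98. The median of the 10 genes was 1.96 to 2.47 when single pools were left out, 1.68 with the offset of 16, and 1.51 with spike scaling. The count of probe sets past an adjusted p of 0.05 was 0, also with no filter, a 60% filter, quantile normalization, the offset, and the trend and robust forms of eBayes, and became 201 with median centring, 155 with spike scaling and 479 with the pool number as a replicate block. It was 13 with 1 probe set per gene, and ranged from 0 to 75 when a pool was left out (75 without control pool 1, 31 without control pool 2). In these settings other than 1 probe set per gene, limma's estimate of the prior degrees of freedom was infinite where the count was above 0, so all probe sets were given 1 shared variance. List genes past that threshold numbered 0, and 4 with median centring (higher Hbb-bh1 and Hemgn, lower S100g and Hdc), 3 with spike scaling (lower S100g, Hdc and Ttr) and 8 with the replicate block (higher Hbb-bh1, Hemgn, Hba-x, Ermap and Apoa1, lower S100g, Hdc and Ttr). They numbered 0 when any pool was left out. The pool numbers pair nothing in the labels, and the differences between pools 1 and 2 correlated at 0.357 between diets. Spike scaling and setting dim signals to the background were chosen after the data were seen. Signals near background limit the differences of Ctsg, Ltf, Elane, Camp and Ngp. The control signals of Mpo and Ms4a3 were above background on their own arrays. They were dim as well, below the backgrounds of 14.4 and 13.3 on the iron-deficient arrays. With the offset of 16 the differences of Mpo and Ms4a3 were 3.05 and 0.71.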
